A study of Saccharomyces cerevisiae with 16 samples.

Results

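Newly made RNA of the budding yeast strain WT-aa was compared between 20 and 30 min of rapamycin, pooled, and 0 min. The comparison holds 6 of the 16 dual-colour arrays of the series: 2 at 20 min, 2 at 30 min and 2 at 0 min, chosen by strain and time from the labels. The whole series set Mot1-aa, a strain whose Mot1 protein is drawn out of the nucleus by rapamycin, beside WT-aa, its parent, at 0, 10, 20 and 30 min. WT-aa has the anchor for that system but no tagged Mot1, so the comparison asks what rapamycin and time do when nothing is drawn away.

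WT-aa at 20 min and at 30 min had received 7.5 µM rapamycin for that time, and WT-aa at 0 min had received none. All groups grew in synthetic complete medium with 2% glucose, and in all of them new RNA was labelled for 6 min up to harvest with 5 mM 4-thiouracil (4tU), an analogue of uracil. WT-aa is a matalpha strain named By4742-aa in the design text. It carries tor1-1, lacks FPR1 (fpr1del) and has the ribosomal protein Rpl13A joined to FKBP12 (RPL13A-FKBP12-NAT). It has MET15, and of the marker genes it carries the alleles ura3, lys2, leu2 and his3-1. Mot1-aa, used below for the difference between strains, has Mot1-FRB-yEGFP-3V5 in addition. Each group was 2 independent cultures, with the sample in Cy3 for culture 1 and in Cy5 for culture 2. The other dye held one pool of 4tU-labelled RNA from several WT-aa cultures without rapamycin. The sources used here do not give whether the times came from the same cultures or whether a vehicle was added at 0 min. Rapamycin, its solvent and the minutes that passed can therefore not be told apart.

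Rapamycin acts in yeast by binding Fpr1, and the pair of them blocks TOR complex 1, the kinase complex that couples growth to nitrogen. Inhibition of the complex is known to turn on the retrograde response, in which Rtg1 and Rtg3 enter the nucleus and activate genes that feed glutamate synthesis. It also turns on genes for poor nitrogen sources and stress genes, and it lowers ribosome synthesis. In anchor-away strains the tor1-1 allele and the loss of Fpr1 are meant to keep this response from starting.

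Every value below is a log2 ratio of the sample to the pool for one gene, set so that the typical gene of each array lies at 0. A change is therefore relative to the other genes, and in these bulk samples fewer cells and less RNA per cell cannot be told apart. On the 6 arrays the gene spots lay 23.99 to 32.25 times over background (11.65 to 32.25 on all 16), and 97.23% to 99.51% of genes were brighter than the 99th percentile of the negative spots. The signal of the external control spots was 1.184 to 1.499 times their background. Levels of different probes are not comparable, so the marker genes are given one by one. The mean sample signal was 40540 units for MF(ALPHA)1, the alpha pheromone gene, and 10110 for STE3, a receptor gene of alpha cells. It was 106 for MFA1 and 84.11 for MFA2, pheromone genes of the opposite mating type, and all of these lay above the negative spots on all 6 arrays. The 4 alpha cell genes had signals of 9656 (SAG1) to 40540, and the 6 genes of the opposite mating type 84.11 (MFA2) to 321.6 (STE2). Of the marker genes, HIS3 and LYS2 had signals of 266.8 and 193 and lay above the negative spots on all 6 arrays. LEU2 was brighter than the negative spots on 2 of 6 arrays, with a mean signal of 56.58, and URA3 on 5 of 6, with 70.9. No named probe of FPR1 was available for a check of its loss. Precision was limited by the number of arrays, 2 a group, and the median half-width of the 95% interval of a change was 0.189.

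At 20 and 30 min 26 of 5315 genes differed from 0 min (limma, two-sided, Benjamini-Hochberg adjusted p under 0.05), which is 0.489% of those tested. Of them 22 were higher (0.414%) and 4 lower (0.0753%), and 8 passed with a change over 1.5-fold. An unadjusted p under 0.05 was found for 431 genes, where 266 would be so by chance alone. The changes of all genes had an SD of 0.121 and a median of -0.00027, and the median SE of a change was 0.086. For each of the 26 genes the 4 late arrays lay all above or all below both 0 min arrays, and both cultures gave the same sign. The 26 were picked by a test on these same arrays, so this describes them and is no added support. All 26 were brighter than the negative spots on all 6 arrays. Of all genes 391 (7.36%) had the 4 late arrays above and 297 (5.59%) below. Across all 5315 genes, which are not independent and share the arrays and the pool, the change of culture 1 correlated with that of culture 2 at r = 0.116.

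How many genes passed depended on which arrays were in the fit. Without the WT-aa 0 min array of culture 1, 5 genes passed, all among the 26. Without that of culture 2, 16 passed, of which 10 were among the 26. Without 1 array of 20 or 30 min, 7 to 14 passed. Leaving out either or both of the Mot1-aa 10 min arrays, which enter the spread but no mean of this comparison, gave 116 calls (82 higher and 34 lower, 2.18%), among them all 26. With the 6 arrays of the comparison alone, 20 and 30 min as 1 group, 5 passed: CIT2, CIT1, ACO1, AGP2 and GSY1. With the arrays scaled on the dim external control spots 0 genes passed in limma, with 30 at an unadjusted p under 0.05. CIT2, CIT1, ACO1 and BIO3 passed with each of the 16 arrays left out in turn. BIO5 and AGP2 lost their call without the WT-aa 0 min array of culture 1, and DLD3 without that of culture 2. The other 19 lost it in 3 to 14 of the 16 cases. Leaving out either array of a group outside the comparison gave the same result, so the 16 cases are not all different.

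**Figure D1:**
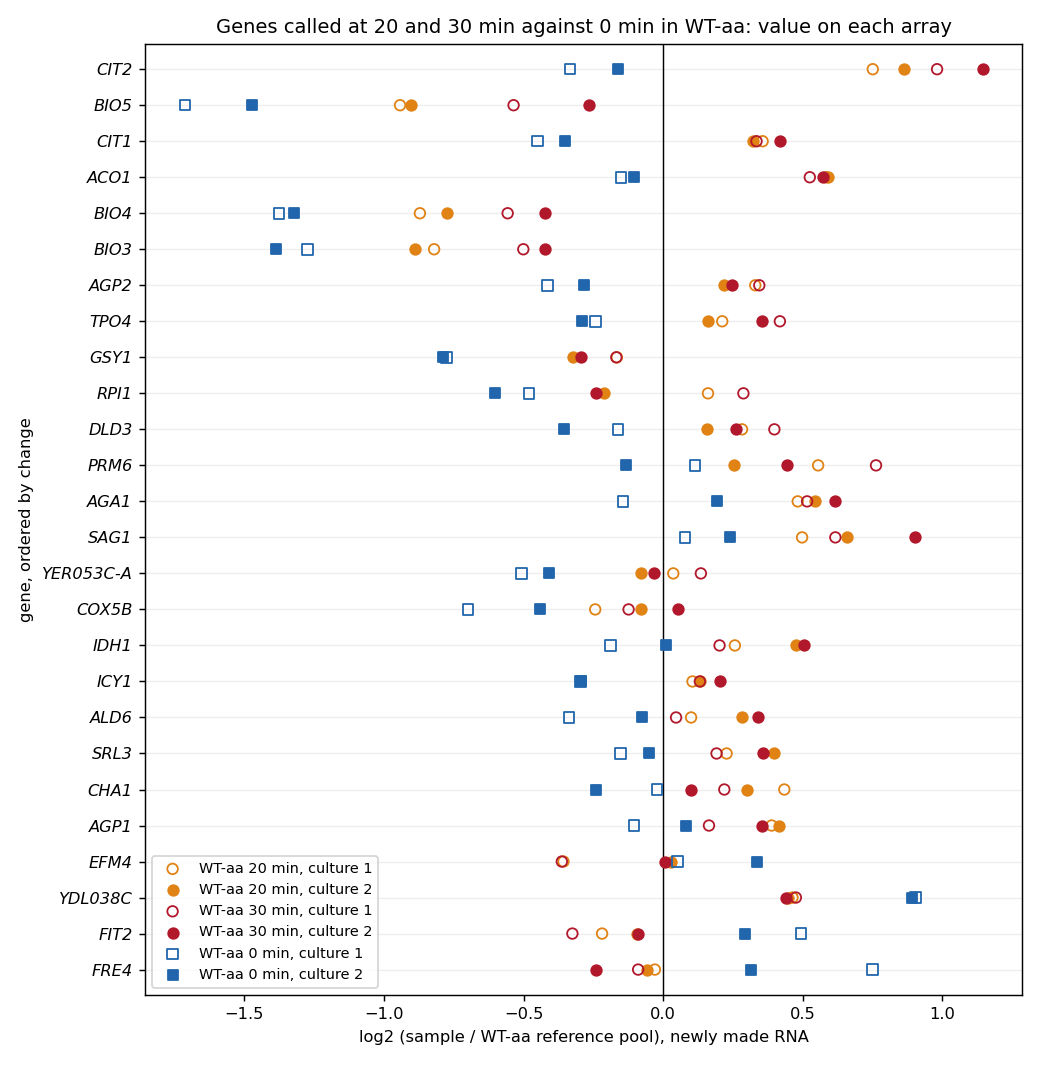
Value on each of the 6 WT-aa arrays for the 26 genes that passed the test. The x axis is log2 of sample over pool, each row is 1 gene, circles are 20 min (orange) and 30 min (red), squares are 0 min (blue), open marks are culture 1 and filled marks culture 2. For each gene the 4 circles lie on one side of both squares, with the widest separation for CIT2 and the narrowest for EFM4.

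Targets of the retrograde response included 3 of the 4 largest changes among the 26. Of 8 measured targets 5 rose, where 0.414% of all genes did, and none fell. All 8 changes were positive, with a median of 0.49 against -0.00027 for all genes. This and the other gene lists were chosen with earlier results of these data known, so counts within them are descriptions. CIT2 (YCR005C), the peroxisomal citrate synthase and the gene by which this response is usually followed, stood at 0.75 and 0.86 at 20 min and at 0.98 and 1.14 at 30 min, against -0.33 and -0.16 at 0 min (culture 1, then culture 2, here and below). The late mean was 0.93 ± 0.17 (SD, n = 4 arrays) and the 0 min mean -0.25 ± 0.12 (SD, n = 2). That is 2.27-fold more new RNA, a log2 change of 1.18 (SE 0.057, adjusted p = 3.37e-06) by limma, and the largest change of any gene.

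The first enzymes of the mitochondrial citrate cycle moved with it. CIT1 (YNR001C), the mitochondrial citrate synthase, stood at 0.36 and 0.32 at 20 min and at 0.33 and 0.42 at 30 min, against -0.45 and -0.35 at 0 min. All 4 late arrays were alike and far above both at 0 min, a 1.69-fold rise with a log2 change of 0.76 (SE 0.059, adjusted p = 0.000221). ACO1 (YLR304C), the aconitase that acts after it, stood at 0.59 and 0.59 at 20 min and at 0.52 and 0.57 at 30 min, against -0.15 and -0.10 at 0 min. Its late arrays lie close together, and the rise was 1.62-fold, with a log2 change of 0.70 (SE 0.057, adjusted p = 0.000253). DLD3 (YEL071W), a D-lactate dehydrogenase of the cytosol, had values of 0.28 and 0.16 at 20 min and at 0.40 and 0.26 at 30 min, against -0.16 and -0.36 at 0 min, a log2 change of 0.53 (SE 0.062, adjusted p = 0.00394). IDH1 (YNL037C), a subunit of isocitrate dehydrogenase, stood at 0.26 and 0.48 at 20 min and at 0.20 and 0.51 at 30 min, against -0.19 and 0.0087 at 0 min, a log2 change of 0.45 (SE 0.079, adjusted p = 0.0366). The IDH1 groups were separate but both were spread by culture, with culture 2 the higher at each time.

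Of the other targets, IDH2, the partner subunit, had a change of 0.37 (adjusted p = 0.378 by limma), and its 30 min arrays lay at 0.17 and -0.061. PYC1, a pyruvate carboxylase, had a change of 0.10, and ATO3, an ammonia exporter, 0.049, and neither passed. Of the genes of the retrograde signal itself, none of the 8 passed, and their median was -0.0067. RTG3, one of the activators, had a change of 0.12 and MKS1, a repressor of the pathway, 0.13. Of the 20 other measured enzymes of the citrate and glyoxylate cycles none passed, with a median of 0.026. The strongest of them by p were SDH1 at 0.18 and MDH1 at 0.11.

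**Figure D2:**
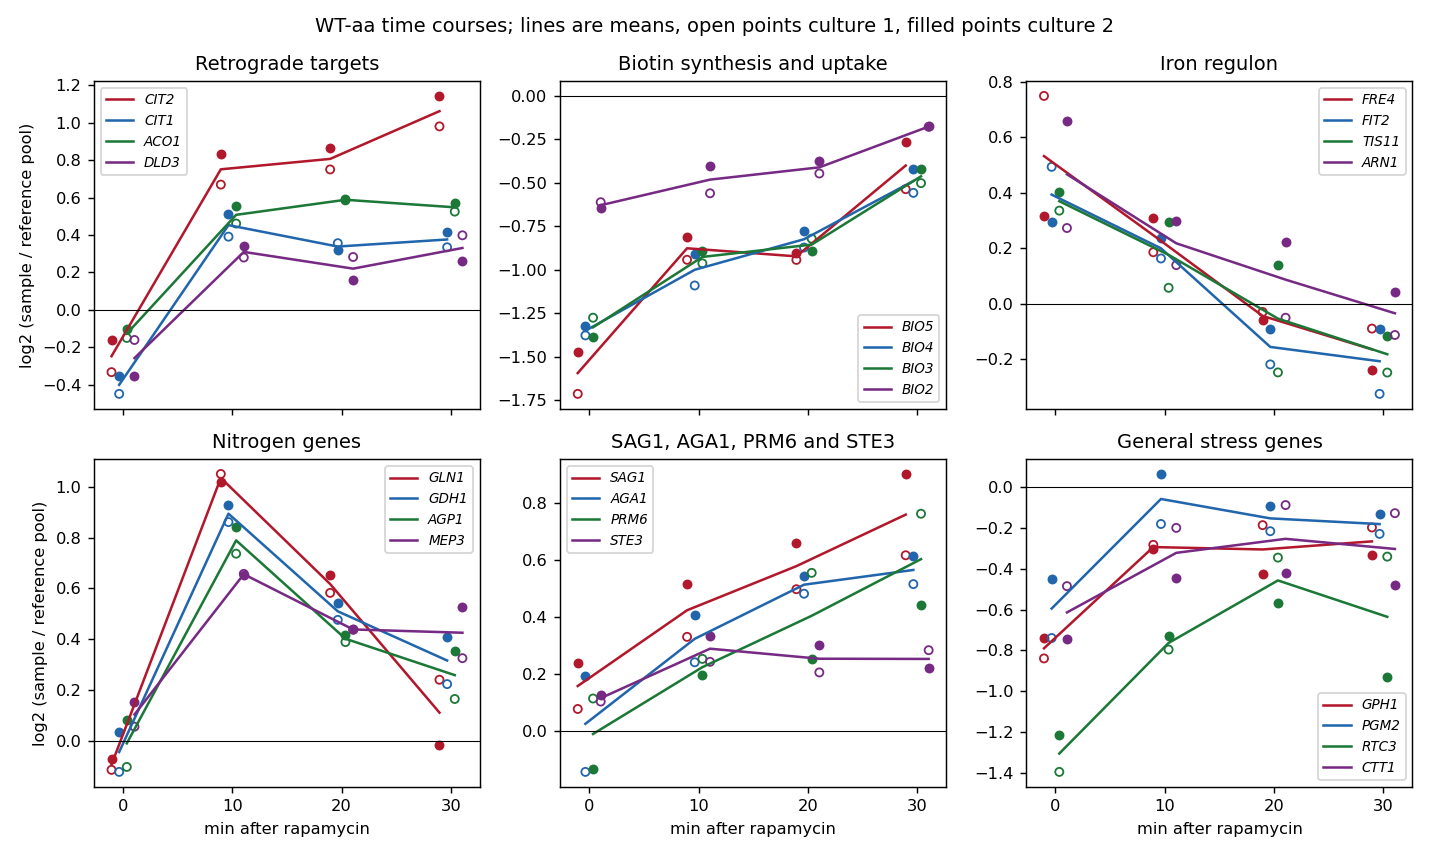
Time course of WT-aa from 0 to 30 min for genes in 6 panels. The x axis is minutes of rapamycin, the y axis log2 of sample over pool, points are the 2 arrays of each time, set slightly apart by gene, and lines join their means. CIT2, CIT1 and ACO1 are higher at 10, 20 and 30 min than at 0 min, GLN1 and GDH1 are highest at 10 min, and FIT2 and FRE4 are lower at 20 and 30 min.

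Glutamate and glutamine synthesis lie downstream of the citrate cycle. None of the 5 genes measured passed at 20 and 30 min in limma, and 3 had an unadjusted p under 0.05. GLN1 and GDH1 did pass without both Mot1-aa 10 min arrays (adjusted p = 0.0134 and 0.00152 by limma). GLN1, glutamine synthetase, stood at 0.58 and 0.65 at 20 min and at 0.24 and -0.020 at 30 min, against -0.12 and -0.074 at 0 min, with 1.05 and 1.02 at 10 min. Its 30 min array of culture 2 lay close to both 0 min arrays, while those of 10 and 20 min were far above them. Its change was 1.13 at 10 min (adjusted p = 0.00325 by limma), 0.71 at 20 min (0.0801) and 0.20 at 30 min (0.687). GDH1, the glutamate dehydrogenase that makes glutamate, had changes of 0.94, 0.56 and 0.36 at these times, of which the first passed (adjusted p = 0.00259). At 10 min 22 of all genes passed against 0 min (0.414%). These 3 changes share the 0 min arrays. GDH2, which breaks glutamate down, GDH3 and GLT1, glutamate synthase, had late changes of 0.16, -0.012 and 0.12.

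Genes for poor nitrogen sources, which TOR complex 1 holds down through Gln3 and Gat1, did not pass: 0 of 26 were called, 2 had an unadjusted p under 0.05, and the median change was 0.084. MEP3, an ammonium permease, came closest. It stood at 0.44 and 0.44 at 20 min and at 0.32 and 0.53 at 30 min, against 0.055 and 0.15 at 0 min, a log2 change of 0.33 (SE 0.068, adjusted p = 0.0779). The values do not overlap, and without both Mot1-aa 10 min arrays MEP3 passed (adjusted p = 0.0194 by limma). MEP2, the high-affinity ammonium permease, had 0.14, the allantoin carrier gene DAL5 0.13, DAL7 0.13, VID30 0.19 and DCG1 -0.18, with adjusted p-values by limma between 0.59 and 0.677. Among the genes of the TOR complexes and their effectors 0 of 15 passed, with a median of 0.029, and TOR1 had a change of 0.16 (adjusted p = 0.691).

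Of 19 amino acid permeases 2 rose, where 0.414% of all genes did, and none fell, with a median of 0.15. DIP5 (0.67) passed too without both Mot1-aa 10 min arrays. AGP2 (YBR132C), a membrane carrier known for carnitine and polyamine uptake, stood at 0.33 and 0.22 at 20 min and at 0.34 and 0.25 at 30 min, against -0.41 and -0.29 at 0 min. All late arrays were above 0 and both 0 min arrays below it, a 1.55-fold rise with a log2 change of 0.63 (SE 0.074, adjusted p = 0.00394). AGP1 (YCL025C), a broad amino acid permease under the amino acid sensor of the plasma membrane, stood at 0.39 and 0.41 at 20 min and at 0.16 and 0.35 at 30 min, against -0.10 and 0.082 at 0 min, a log2 change of 0.34 (SE 0.057, adjusted p = 0.0291). Its 30 min array of culture 1 came closest to the 0 min array of culture 2. At 10 min AGP1 lay at 0.74 and 0.84, above every later array. CHA1 (YCL064C), the serine and threonine deaminase, stood at 0.43 and 0.30 at 20 min and at 0.22 and 0.10 at 30 min, against -0.022 and -0.24 at 0 min, a log2 change of 0.39 (SE 0.072, adjusted p = 0.0451). CHA1, like COX5B, ICY1 and ALD6 below, is named because it passed the test, after its values were seen. TPO4 (YOR273C), a polyamine exporter, stood at 0.21 and 0.16 at 20 min and at 0.42 and 0.35 at 30 min, against -0.24 and -0.29 at 0 min, a log2 change of 0.55 (SE 0.082, adjusted p = 0.0151) with higher values at 30 than at 20 min in both cultures.

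Of 7 genes of biotin synthesis and uptake 3 rose at 20 and 30 min, where 0.414% of all genes did, and none fell. All 7 changes were positive and their median was 0.40. BIO5 (YNR056C), the carrier of a biotin precursor, stood at -0.94 and -0.90 at 20 min and at -0.54 and -0.26 at 30 min, against -1.71 and -1.47 at 0 min. Its late mean was -0.66 ± 0.32 (SD, n = 4) and its 0 min mean -1.59 ± 0.17 (SD, n = 2). The rise was 1.91-fold, with a log2 change of 0.93 (SE 0.12, adjusted p = 0.00852) by limma. BIO4 (YNR057C), dethiobiotin synthetase, stood at -0.87 and -0.78 at 20 min and at -0.56 and -0.42 at 30 min, against -1.38 and -1.32 at 0 min, a log2 change of 0.69 (SE 0.10, adjusted p = 0.0121). BIO3 (YNR058W), the aminotransferase before it, stood at -0.82 and -0.89 at 20 min and at -0.50 and -0.42 at 30 min, against -1.27 and -1.39 at 0 min, a log2 change of 0.67 (SE 0.069, adjusted p = 0.00176). In each of the 3 genes both 30 min arrays lay above both 20 min arrays.

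BIO2 (YGR286C), biotin synthase, stood at -0.45 and -0.38 at 20 min and at -0.18 and -0.18 at 30 min, against -0.61 and -0.65 at 0 min, which also keep this order without overlap. Its late change of 0.33 narrowly missed the threshold (adjusted p = 0.0521 by limma), and its change at 30 min alone was 0.45 and passed (adjusted p = 0.0244). VHT1, the biotin carrier of the plasma membrane, had a change of 0.40 (adjusted p = 0.201) and VHR1, the activator of the pathway, 0.27 (adjusted p = 0.184). BPL1, which joins biotin to its proteins, had 0.11. Without both Mot1-aa 10 min arrays, BIO2 and VHT1 passed too. With the 6 arrays of the comparison alone, BIO3, BIO4 and BIO5 did not pass. None of the 5 measured genes for biotin-carrying proteins passed. Against the pool BIO3, BIO4 and BIO5 lay at -1.33, -1.35 and -1.59 at 0 min, and the late arrays were nearer to it. The labels give the pool as WT-aa RNA without rapamycin, while its name in the array titles also holds Mot1. The part of this distance in the rise was not tested.

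The distance to the pool was also read for the other genes. Of the 26, 15 had a late mean nearer to the pool than their 0 min mean and 11 had the reverse. Of all genes 43.5% had the late mean nearer. For 14 of the rises, CIT2, CIT1 and ACO1 among them, the late mean was above the pool and the 0 min mean below it. Over all genes the SD of the distance to the pool was 0.125 late and 0.131 at 0 min, and 24 genes late and 45 genes at 0 min lay more than 0.5 from it.

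Of the 4 genes that fell, 2 belong to the iron regulon, the genes that Aft1 and Aft2 turn on when iron is scarce. Of 26 measured members these 2 fell, where 0.0753% of all genes did, and none rose. Among the members 21 changes were negative, and the median was -0.088. FRE4 (YNR060W), a ferric reductase, stood at -0.030 and -0.058 at 20 min and at -0.090 and -0.24 at 30 min, against 0.75 and 0.32 at 0 min. The 0 min arrays differ from each other by more than the late arrays do, and all late arrays lie below both, a 1.55-fold drop with a log2 change of -0.64 (SE 0.10, adjusted p = 0.0209) by limma. Without the 0 min array of culture 1 its change was -0.42 and did not pass (adjusted p = 0.201 by limma), and it also lost its call without any 1 of the 20 or 30 min arrays. FIT2 (YOR382W), a cell wall mannoprotein that holds iron bound to siderophores, stood at -0.22 and -0.093 at 20 min and at -0.33 and -0.090 at 30 min, against 0.49 and 0.29 at 0 min, 1.49-fold lower, with a log2 change of -0.58 (SE 0.081, adjusted p = 0.0121). With the authors' deposited log2 ratios FIT2 did not pass. With the 6 arrays of the comparison alone, neither FRE4 nor FIT2 passed.

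The next members by p did not pass. TIS11, which promotes decay of mRNAs of iron-using proteins, had a change of -0.49 (adjusted p = 0.101 by limma). The siderophore carriers ARN1, SIT1 and ENB1 had -0.44, -0.30 and -0.22. Without both Mot1-aa 10 min arrays 7 members passed, all of them lower, where 0.64% of all genes did: FRE4, FIT2, TIS11, ARN1, SIT1, and the iron oxidase and permease FET3 and FTR1, named after their values were seen. FET3 had a change of -0.44 and FTR1 -0.43. For FET3 and FTR1 the 0 min array of culture 1 lies inside the range of the late arrays.

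SAG1 was the 1 call among the 4 alpha cell genes, and 0.414% of all genes rose. SAG1 (YJR004C), the alpha-agglutinin by which cells of this mating type adhere, stood at 0.50 and 0.66 at 20 min and at 0.62 and 0.90 at 30 min, against 0.077 and 0.24 at 0 min, a log2 change of 0.51 (SE 0.076, adjusted p = 0.0151). AGA1 and PRM6 belong to no list and are named for the size of their rise. AGA1 (YNR044W), an agglutinin anchor, stood at 0.48 and 0.54 at 20 min and at 0.52 and 0.61 at 30 min, against -0.14 and 0.19 at 0 min, a log2 change of 0.51 (SE 0.086, adjusted p = 0.0291). Its 0 min arrays are far apart, and the higher of them is still below all late arrays. PRM6 (YML047C), a membrane protein gene, stood at 0.55 and 0.25 at 20 min and at 0.76 and 0.44 at 30 min, against 0.11 and -0.13 at 0 min, a log2 change of 0.51 (SE 0.079, adjusted p = 0.0172). PRM6 is dim, with a mean sample signal of 119.6 units, though above the negative spots on all 6 arrays. SAG1, AGA1 and PRM6 did not pass in a fit without a term for the culture number, nor with the 6 arrays alone. The other alpha genes had changes of 0.077 for MF(ALPHA)1, 0.065 for MF(ALPHA)2 and 0.14 for STE3, and none passed. The 6 genes of the opposite mating type had changes between -0.035 (MFA2) and 0.030 (STE6). YDL038C, a platform name that the R64 gene table lists as a synonym of PRM7, fell. It stood at 0.46 and 0.45 at 20 min and at 0.48 and 0.44 at 30 min, against 0.90 and 0.89 at 0 min, a log2 change of -0.44 (SE 0.077, adjusted p = 0.0361). The probe named PRM7 had a change of -0.38 (adjusted p = 0.244 by limma).

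The remaining calls fell in no list or in lists with no other call. GSY1 (YFR015C), a glycogen synthase, stood at -0.17 and -0.32 at 20 min and at -0.17 and -0.29 at 30 min, against -0.78 and -0.79 at 0 min, a 1.46-fold rise with a log2 change of 0.54 (SE 0.088, adjusted p = 0.0229) by limma. RPI1 (YIL119C), a regulator of transcription, stood at 0.16 and -0.21 at 20 min and at 0.29 and -0.24 at 30 min, against -0.48 and -0.60 at 0 min, a log2 change of 0.54 (SE 0.093, adjusted p = 0.0325). Its late arrays are split by culture, with culture 1 above the pool and culture 2 below it. SRL3 (YKR091W), counted among the genes of late G1, stood at 0.23 and 0.40 at 20 min and at 0.19 and 0.36 at 30 min, against -0.15 and -0.050 at 0 min, a log2 change of 0.39 (SE 0.053, adjusted p = 0.00971).

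YER053C-A stood at 0.036 and -0.078 at 20 min and at 0.13 and -0.031 at 30 min, against -0.51 and -0.41 at 0 min, a log2 change of 0.47 (SE 0.068, adjusted p = 0.0121). COX5B, a subunit of cytochrome c oxidase, had a log2 change of 0.47 (SE 0.075, adjusted p = 0.0223), ICY1 a log2 change of 0.44 (SE 0.059, adjusted p = 0.00971) and ALD6, the cytosolic acetaldehyde dehydrogenase, a log2 change of 0.40 (SE 0.057, adjusted p = 0.0121). In all of these the late arrays lay above both 0 min arrays. EFM4 (YIL064W), a lysine methyltransferase, stood at -0.36 and 0.027 at 20 min and at -0.36 and 0.0052 at 30 min, against 0.050 and 0.34 at 0 min, a log2 change of -0.37 (SE 0.066, adjusted p = 0.0407). Its arrays nearly touch: the highest late value, in culture 2, lies just under the 0 min value of culture 1. EFM4 lost its call in 14 of the 16 cases with an array left out.

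The list of stress genes under Msn2 and Msn4 gave no call. It holds the glycogen gene GSY2 and not GSY1, which rose above. Of 34 measured 0 passed, while 30 changes were positive and the median was 0.22. An unadjusted p under 0.05 was found for 20 of them, and for 431 of all 5315 genes. In 15 of them the late arrays all lay above both 0 min arrays, where 7.36% of all genes did. GPH1, glycogen phosphorylase, stood at -0.19 and -0.42 at 20 min and at -0.20 and -0.33 at 30 min, against -0.84 and -0.74 at 0 min, a log2 change of 0.50 (SE 0.10, adjusted p = 0.0644). PGM2, phosphoglucomutase, had a change of 0.43 (adjusted p = 0.0645). RTC3, named after its values were seen, had the largest change of the list, 0.76, with an SE of 0.16 (adjusted p = 0.0978). Without both Mot1-aa 10 min arrays 10 members passed, all higher, where 1.54% of all genes did. The hexose carrier HXT1 stood at 0.31 and 0.31 at 20 min and at 0.42 and 0.66 at 30 min, against 0.061 and 0.0038 at 0 min. Its late change of 0.39 missed the threshold (adjusted p = 0.0684), and its change at 30 min was 0.51 (adjusted p = 0.0475).

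Growth genes gave no call either. Of 57 genes of ribosome biogenesis 0 passed, 12 had an unadjusted p under 0.05, 5 changes were positive and the median was -0.13. The smallest p-values were those of DBP2, an RNA helicase, with -0.35 (adjusted p = 0.167 by limma) and of NOP13 with -0.23. Of 20 subunits of RNA polymerase I and III 0 passed, 5 had an unadjusted p under 0.05, 1 change was positive and the median was -0.14. RPC25 had -0.27 and RPC34 -0.20. Without both Mot1-aa 10 min arrays 3 of these subunits passed, all lower, where 0.64% of all genes passed as lower. The 23 ribosomal protein genes had a median of 0.016 and no call. Of the 14 heat shock chaperones 0 passed, 1 had an unadjusted p under 0.05 and none was positive, with a median of -0.16. SSE1 had -0.22 and SSA1 -0.16. The 10 histone genes, among them the variant HTZ1 and the linker histone HHO1, had changes between -0.11 and -0.0099. Of all genes 49.9% were positive. In lysine, arginine, sulfur, purine and pyrimidine synthesis, the phosphate regulon, drug resistance, ergosterol synthesis, glycolysis, the respiratory chain and the seripauperins, 0 genes passed in either direction, and the medians lay between -0.068 and 0.10. The respiratory chain list does not hold COX5B, the oxidase subunit gene that rose above. MET8 (sulfur), AAH1 (purine) and PDR16 (drug resistance) passed without both Mot1-aa 10 min arrays, with changes of -0.29, -0.23 and 0.27.

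**Figure D3:**
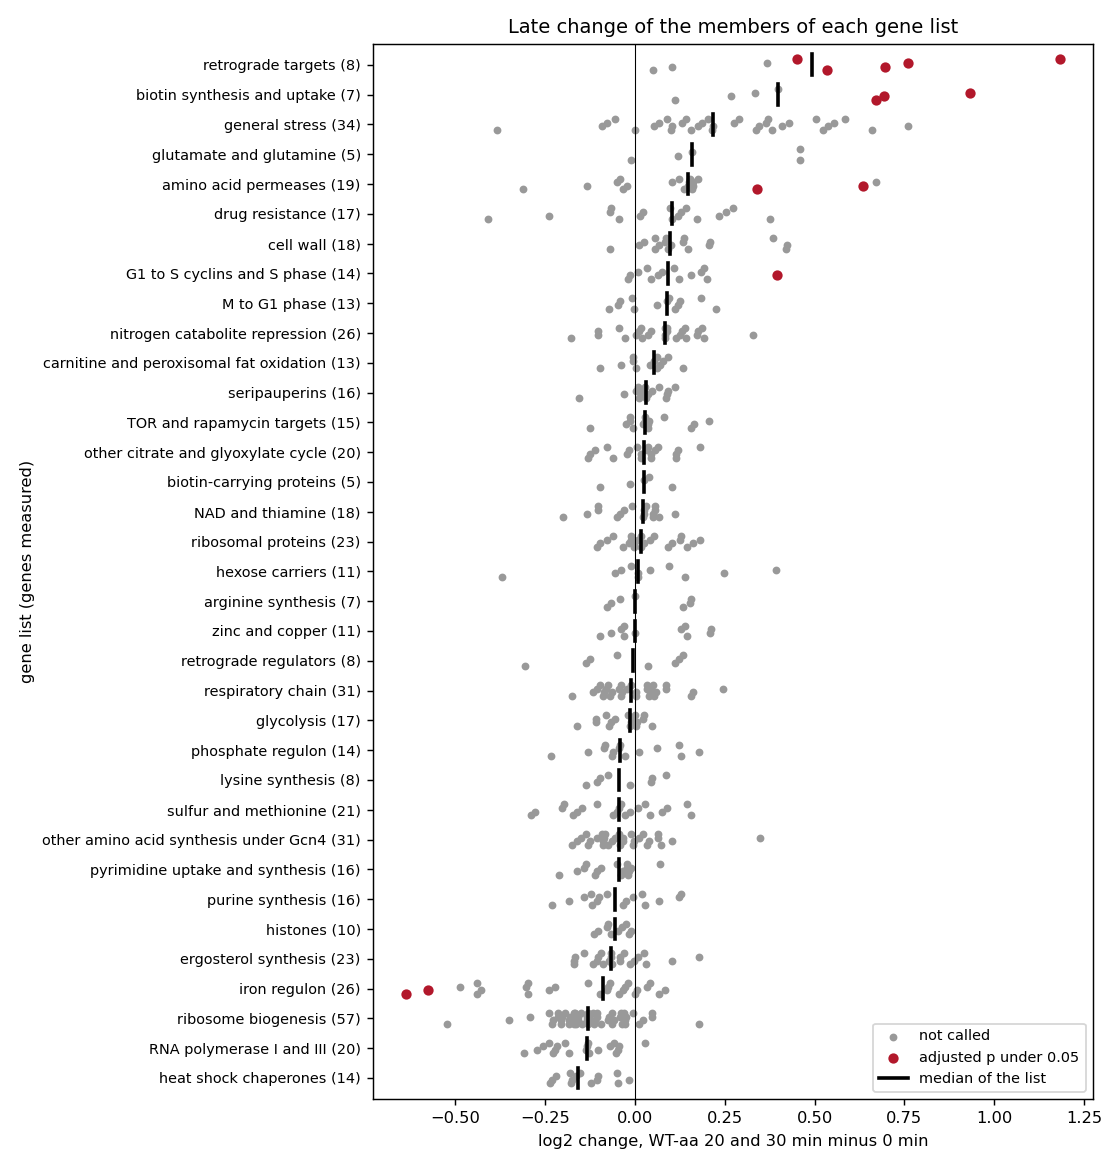
Change of every measured member of the gene lists at 20 and 30 min against 0 min in WT-aa. The x axis is the log2 change, each row is 1 list, each point 1 gene, red where it passed the test and grey otherwise, and the bar marks the median of the list. The retrograde and biotin lists lie to the right of 0 with medians of 0.49 and 0.40, and the general stress list is shifted to 0.22 with no red point.

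Taken one at a time, 20 min differed from 0 min in 6 genes (0.113%), all higher, and 30 min in 21 (0.395%), 19 higher and 2 lower (0.0376%). Both use the same 0 min arrays. CIT2, ACO1, CIT1, AGP2, DLD3 and SRL3 passed at 20 min and also at 30 min. CIT2 changed by 1.06 at 20 min and 1.31 at 30 min, ACO1 by 0.72 at 20 min and 0.68 at 30 min, and CIT1 by 0.74 at 20 min and 0.78 at 30 min. BIO3, BIO4 and BIO5 passed at 30 min and not at 20 min, with changes of 0.48 at 20 min and 0.87 at 30 min for BIO3, and the difference between these times was not past the threshold. Of the 26 genes 8 passed at neither time alone: AGA1, AGP1, CHA1, EFM4, GSY1, IDH1, RPI1 and YDL038C. Beside BIO2 and HXT1, AAD10 passed at 30 min and not in the joint test, with a change of 0.50, and is named after its value was seen. The median SE of a change was 0.099 for 1 time and 0.086 for both.

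The direct comparison of 30 with 20 min gave 0 calls in limma, with a smallest adjusted p of 0.894. An unadjusted p under 0.05 was found for 74 genes, where 266 would be so by chance alone. With weights estimated for each array 2 genes passed. The 0 calls do not show that 20 and 30 min were alike, and why so few p-values were small was not tested. The 95% intervals that follow are for single genes and are not adjusted for the number of genes. BIO3 differed between 30 and 20 min by 0.39 (95% interval 0.22 to 0.57), BIO5 by 0.52 (0.22 to 0.83) and CIT2 by 0.26 (0.11 to 0.40). GLN1 differed by -0.51 (-0.79 to -0.22). Against 10 min, 20 and 30 min together differed in 1 gene (0.0188%), AGP1, by -0.46 (SE 0.057, adjusted p = 0.0422 by limma). Here 99 genes had an unadjusted p under 0.05, where 266 would by chance alone. No gene passed this comparison under 7 of the alternative settings, nor with any single array left out other than those of Mot1-aa 10 min. The difference of the late arrays from 10 min was -0.67 for GLN1 and -0.48 for GDH1, and neither passed. CIT2 differed from its 10 min level by 0.18 (95% interval 0.058 to 0.31).

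In Mot1-aa, with its own cultures and 0 min arrays, 2124 genes (40.0%) differed at 20 and 30 min from 0 min, 1203 higher (22.6%) and 921 lower (17.3%). The Mot1-aa arrays share the pool and the estimate of the spread with those of WT-aa. Of the 26 genes 23 also passed in Mot1-aa in the same direction, and 24 had the same sign. The strain difference, the late change of Mot1-aa minus that of WT-aa, passed for 970 genes (18.3%), 679 of them higher in Mot1-aa (12.8%) and 291 lower (5.48%). It passed for 18 of the 26. CIT2 changed by 1.07 in Mot1-aa and by 1.18 in WT-aa, a difference of -0.11 (95% interval -0.29 to 0.067, adjusted p = 0.372 by limma). CIT1 changed by 0.92 in Mot1-aa and by 0.76 in WT-aa (95% interval of the difference -0.026 to 0.34).

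Other targets of the retrograde response differed between the strains. ACO1 changed by 1.21 in Mot1-aa and by 0.70 in WT-aa (difference 0.52, adjusted p = 0.00173), and IDH1 by 1.49 in Mot1-aa and by 0.45 in WT-aa (difference 1.04, adjusted p = 0.000264). DLD3 ran the other way, with 0.16 in Mot1-aa and 0.53 in WT-aa (difference -0.38, adjusted p = 0.0138). BIO5 changed by 1.61 in Mot1-aa and by 0.93 in WT-aa, and BIO3 by 1.20 in Mot1-aa and by 0.67 in WT-aa. Both differences passed (adjusted p = 0.0187 and 0.00449). AGP1 had 1.64 in Mot1-aa and 0.34 in WT-aa. FRE4 and YDL038C were the 2 genes with opposite signs: FRE4 had 0.12 in Mot1-aa and -0.64 in WT-aa, and YDL038C had 0.56 in Mot1-aa and -0.44 in WT-aa. For CHA1 and PRM6 the differences were 0.020 (95% interval -0.20 to 0.24) and -0.056 (-0.30 to 0.19).

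For the lists, only medians and counts were compared between the strains. Of all genes 22.6% passed as higher and 17.3% as lower in Mot1-aa, and 0.414% and 0.0753% in WT-aa. General stress genes had a median change of 1.07 in Mot1-aa, with 32 of 34 higher, and of 0.22 in WT-aa, with 0. Ribosome biogenesis had -0.46 in Mot1-aa, with 45 of 57 lower, and -0.13 in WT-aa, with 0. Retrograde targets had 0.995 in Mot1-aa, with 6 of 8 higher, and 0.49 in WT-aa, with 5. Biotin genes had 0.996 in Mot1-aa, with 7 of 7 higher, and 0.40 in WT-aa, with 3. The iron regulon had 0.26 in Mot1-aa, with 12 of 26 higher and 4 lower, and -0.088 in WT-aa, with 0 higher and 2 lower.

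**Figure D4:**
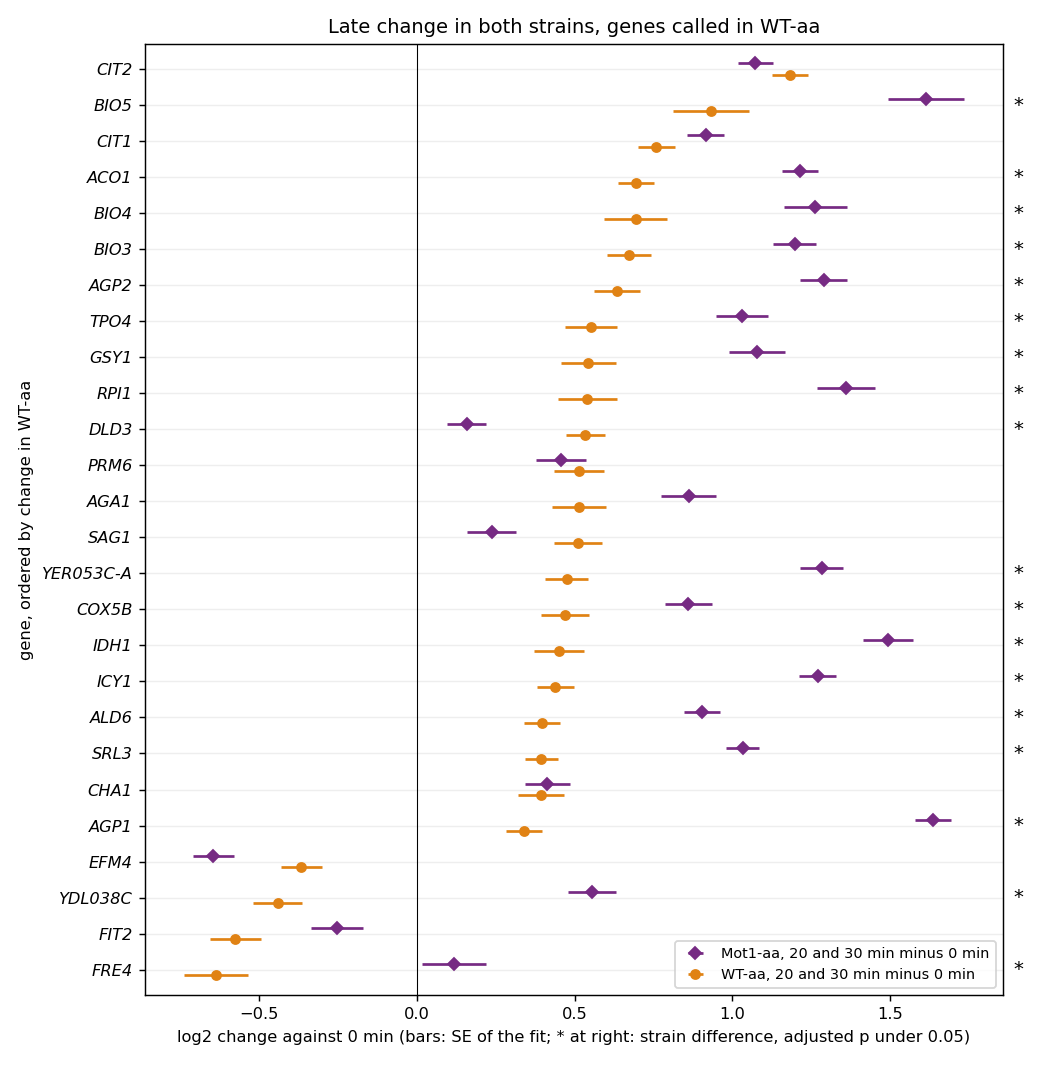
Late change of the 26 genes in Mot1-aa (upper mark of each row) and in WT-aa (lower mark). The x axis is the log2 change at 20 and 30 min against 0 min, bars are the SE of the fit, and an asterisk at the right edge marks a strain difference with an adjusted p under 0.05. The marks of CIT2 and CIT1 lie close together, while most other rises are larger in Mot1-aa.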

How the data were processed

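The deposited scanner tables give, per the file headers, intensity values of spots and local background in both channels, with no background taken off. A second deposited table has the authors' own log2 ratios (Cy5 to Cy3), normalized in a way the sources used here do not give. It followed the scanner ratios with r of 0.796 to 0.902 on the 6 arrays and served as an alternative. No scanner, software or genome build is named in the sources used here.

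With limma 3.58.1 in R 4.3.3, gene spots were corrected with normexp (offset 50) and loess within each array, turned to log2 of sample over reference by the labelled dye, and averaged over the 2 spots of a probe. The design text gives the dyes of the first and the replicate hybridisation in the opposite order to the labels of culture 1 and culture 2. Across arrays, the channel labelled as the pool had the higher mean correlation in either orientation (r 0.993 against 0.979, and 0.997 against 0.985), so the labels were used. Of 6388 probes, 5326 had a gene name, of which 5255 matched a symbol and 54 a synonym in the R64 table and 6 were kept, which gave 5315 genes. Among the 1062 unnamed probes 0 passed in a fit over all probes.

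One model per gene over all 16 arrays (lmFit, eBayes, two-sided, Benjamini-Hochberg over all genes, threshold 0.05) held the 8 groups and a term for the culture number, which is also the dye orientation. It has 7 residual and 3.54 prior degrees of freedom. The numbers come from the labels. Deviations of same-numbered arrays correlated at 0.296 to 0.681 for the 3 pairs of the 6 arrays, and at -0.356 to 0.777 over all 28 pairs of groups, 25 of them over 0.1. The labels set apart the cultures within a group, but they do not give whether different times came from the same cultures. Arrays of different times were treated as independent, which is an assumption.

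The members and gene lists were chosen with earlier results of these data known. Named genes are the 15 largest rises and 8 largest falls among calls, all members of the retrograde, glutamate and biotin lists and the marker lists, the 6 smallest p-values of the nitrogen and iron lists and the 2 smallest of each other list, and the 5 largest calls each way of further comparisons. The fit was also run on simulated data with independent noise of equal spread on all arrays. That run does not show how the test behaves where arrays differ in spread. Alternatives are in the closing section.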

Additional observations from a re-analysis of the deposited data

Results flagged for a closer look

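The late change differed between Mot1-aa and WT-aa for 970 genes in limma's test of the difference itself, Mot1-aa minus WT-aa at 20 and 30 min against 0 min. Of the genes called in WT-aa, the difference was 1.29 for AGP1, 1.04 for IDH1, 1.00 for YDL038C, 0.83 for ICY1, 0.82 for RPI1, 0.81 for YER053C-A and 0.75 for FRE4. It was 0.68 for BIO5, 0.57 for BIO4 and 0.53 for BIO3 of the biotin genes. It was 0.65 for AGP2, 0.64 for SRL3, 0.53 for GSY1, 0.52 for ACO1, 0.51 for ALD6, 0.48 for TPO4 and 0.39 for COX5B. DLD3 alone of the 18 was lower in Mot1-aa, at -0.38.

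The largest strain differences of all genes lay outside the 26. The changes were larger in Mot1-aa for PHM8 (1.96), MTD1 (1.69), HSP26 (1.60), BDH2 (1.57) and CAR2 (1.56). They were lower in Mot1-aa for SSS1 (-1.06), TRM112 (-0.90), SWM1 (-0.89), SPC1 (-0.86) and DFR1 (-0.81). In WT-aa these genes had changes of 0.18, -0.14, 0.13, 0.34, 0.088, 0.039, -0.13, -0.049, 0.23 and -0.040 in the same order, and none passed. Groups of 2 arrays are too small to test a single array as an outlier.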

How the results depend on the processing

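None of the 26 genes changed sign under any alternative: of their 701 values, 482 kept their call and 219 lost it. Many alternatives, such as leaving out an array outside the comparison or dropping the block, left the log2 change itself as it was. The sign could not change in those. CIT2, CIT1, ACO1, AGP2 and GSY1 passed in all 11 alternatives that leave out no single array except scaling on the external control spots. Under that scaling 0 genes passed for 20 and 30 min, for 20 min and for 30 min against 0 min, and for 20 and 30 against 10 min, the median of all genes moved to -0.021, -0.13, 0.081 and 0.094 in turn (0.22 for 30 against 20 min), and the strain difference had 119 calls, all higher, with a median of 0.40.

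The culture number is the replicate block and also the dye orientation. The correlation of same-numbered arrays therefore cannot tell a shared culture from the dye. Its highest value, 0.777, was between Mot1-aa 20 min and WT-aa 0 min, which are different strains. With strain and culture number as a random block the estimated correlation was -0.0668. Without the block, 14 genes passed for 20 and 30 min against 0 min, all among the 26, with 3 at 20 min, 9 at 30 min, 0 against 10 min and 439 for the strain difference. With the WT-aa arrays alone the counts were 48, 12 and 34, and 0 against 10 min. With the 6 arrays alone, 20 and 30 min as one group, 5 passed. Without both Mot1-aa 10 min arrays the counts were 116, 39, 111, 8 against 10 min and 1777 for the strain difference. Median centring gave 15, and 10 at 30 min. Array weights gave 38 at 20 min, 2 for 30 against 20 min and 49 against 10 min. The authors' deposited ratios gave 11 at 20 min and, chosen after seeing the data, 1103 genes without overlap of arrays against 688. Against 10 min, 0 genes passed with no background subtraction, median centring, the authors' ratios or the filter on dim genes.

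With each of the 16 arrays left out in turn, the counts ranged from 5 to 116 for 20 and 30 min, 3 to 39 for 20 min, 4 to 111 for 30 min, 0 to 0 for 30 against 20 min, 0 to 8 against 10 min and 530 to 1777 for the strain difference. Where weights were estimated for each array, both Mot1-aa 10 min arrays had 0.148. The other Mot1-aa arrays had 0.682 to 1.35 and the WT-aa arrays 0.605 to 3.3. The causes of these shifts were not tested. With 2 arrays a group, the smallest change that passed at 20 and 30 min was 0.34 (AGP1), while 0.76 (RTC3) did not pass.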
